A study of Oryctolagus cuniculus with 9 samples.

Results

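The genes described here encode splicing kinases (CLK, DYRK and SRPK genes), SR proteins, the nuclear speckle proteins SON, SRRM1 and SRRM2, and hnRNPs. The rule that chose them uses gene symbols and no measured values, though it was written with earlier results of these data known. It took symbols that start with CLK, DYRK, SRSF or SRPK followed by a digit, or with HNRNP, and added TRA2A, TRA2B, SON, SRRM1 and SRRM2. It found 34 of the 19291 genes in the count table: 3 CLK, 4 DYRK and 3 SRPK genes, 9 SR and TRA2 genes, 3 speckle genes and 12 hnRNP genes. All 34 had enough counts to be tested, as had 12324 genes in all. Members of these families that the table does not list under such a symbol, CLK2 among them, were not analysed here.

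The 9 mRNA libraries came from HA-VSMC, a cell line grown in culture. Its species is labelled as rabbit, which was not checked. In 3 libraries cells had been kept with β-estradiol, the main ovarian estrogen, at 50 nM, in 3 at 250 nM, and 3 were controls. Harvest was after 48 h, in RPMI medium with fetal bovine serum, which all groups shared. The labels do not say whether controls received the DMSO vehicle. They tag the controls with estrogen as the treatment and WT as its concentration, and state a concentration of 250 nM for the treatment in general. Whether the replicates were separate cultures is not stated, and the p-values then describe only how far these libraries spread, which may be technical.

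Pre-mRNA splicing removes introns, and SR proteins and hnRNPs help to decide which exons are kept. SR proteins carry stretches rich in arginine and serine, bind mostly within exons and promote their inclusion, while hnRNPs often act in the opposite direction. SRPK kinases phosphorylate SR proteins in the cytoplasm and so send them into the nucleus. CLK kinases phosphorylate them further in the nucleus and release them from nuclear speckles, the stores of splicing factors. Transcripts of CLK1 and of many SR genes are themselves spliced into forms that are not translated, and counts per gene do not tell such forms apart.

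Totals ran from 54718407 to 72274464 counts per library. This would be about 13679602 to 18068616 fragments if 4 counts stood for 1 fragment. That unit was inferred from the pile-up of low values at multiples of 4 and is not stated in the sources used here. The 34 genes together took 0.58% to 0.601% of each library. Levels are given as CPM, each gene's counts relative to its library's total after TMM scaling, and fold changes as log2 estimate ± SE from edgeR's quasi-likelihood test. Adjusted p-values cover all 12324 genes, with a threshold of 0.05. Of 8 smooth muscle markers, 6 were in the count table. ACTA2 stood at 2807 to 3139 CPM, MYL9 at 385 to 437 CPM, SMTN at 180 to 223 CPM and MYH11 at 26 to 40 CPM. LMOD1 was low, at 1.74 to 2.66 CPM, and DES was at 0 in all libraries. The summed endothelial markers did not exceed 1.3 CPM and the epithelial and leukocyte markers 0.204 CPM, with KDR, EPCAM and ITGAM at 0. These sums cover 6 of 6 endothelial, 3 of 5 epithelial and 4 of 5 leukocyte markers, the rest being absent from the count table. Of the 6 fibroblast markers COL1A1 alone passed by edgeR, rising at both concentrations, while limma on log2(FPKM + 1) called 0. PDGFRA (1.88 to 3.03 CPM), THY1 (1.59 to 2.42 CPM) and DPT (5.55 to 9.43 CPM) were low. LUM stood at 17.1 to 36.7 CPM and DCN at 177 to 238 CPM. The sum of the 6 fibroblast markers, mostly COL1A1, ran from 7210 to 7480 CPM in the controls. It ran from 8065 to 8593 CPM at 50 nM and from 8216 to 8596 CPM at 250 nM. The part of this shift in the results below was not tested. In such cultures a change in the number of cells of a type and a change in RNA per cell cannot be told apart.

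Per transcript length, on the deposited FPKM scale, the 8 highest members were all hnRNP genes. HNRNPK, which binds C-rich sequence, had the highest mean over the 9 libraries, 324 FPKM, followed by HNRNPU, a nuclear scaffold protein, at 219 FPKM. The lowest hnRNP gene was HNRNPLL at 11.8 FPKM, so that levels within this family spanned more than an order of magnitude. Among SR genes TRA2B stood highest (85.2 FPKM) and SRSF12 lowest (0.378 FPKM), and among speckle genes SRRM2 highest (94.1 FPKM) and SRRM1 lowest (32.7 FPKM). Among the kinase genes DYRK2 led at 32.4 FPKM, ahead of SRPK2 at 25.7 FPKM and DYRK1A at 22.6 FPKM. The place of CLK1 differed by group. In the controls it had 15.9 FPKM, below SRPK1 (19.1 FPKM) and CLK3 (17.1 FPKM). At 50 nM it had 25.9 FPKM, above SRPK1 (17.0 FPKM) and CLK3 (16.7 FPKM). At 250 nM CLK1 had 17.3 FPKM, about level with SRPK1 (17.3 FPKM) and CLK3 (17.0 FPKM). CLK4 had a mean of 0.755 FPKM over the 9 libraries. The lowest DYRK gene was DYRK3 at 3.77 FPKM, and the lowest SRPK gene was SRPK3, a form best known from muscle, at 0.327 FPKM. SRPK3 rested on 25 to 57 counts per library and SRSF12 on 6 to 29, which is too few to show moderate changes.

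**Figure D1:**
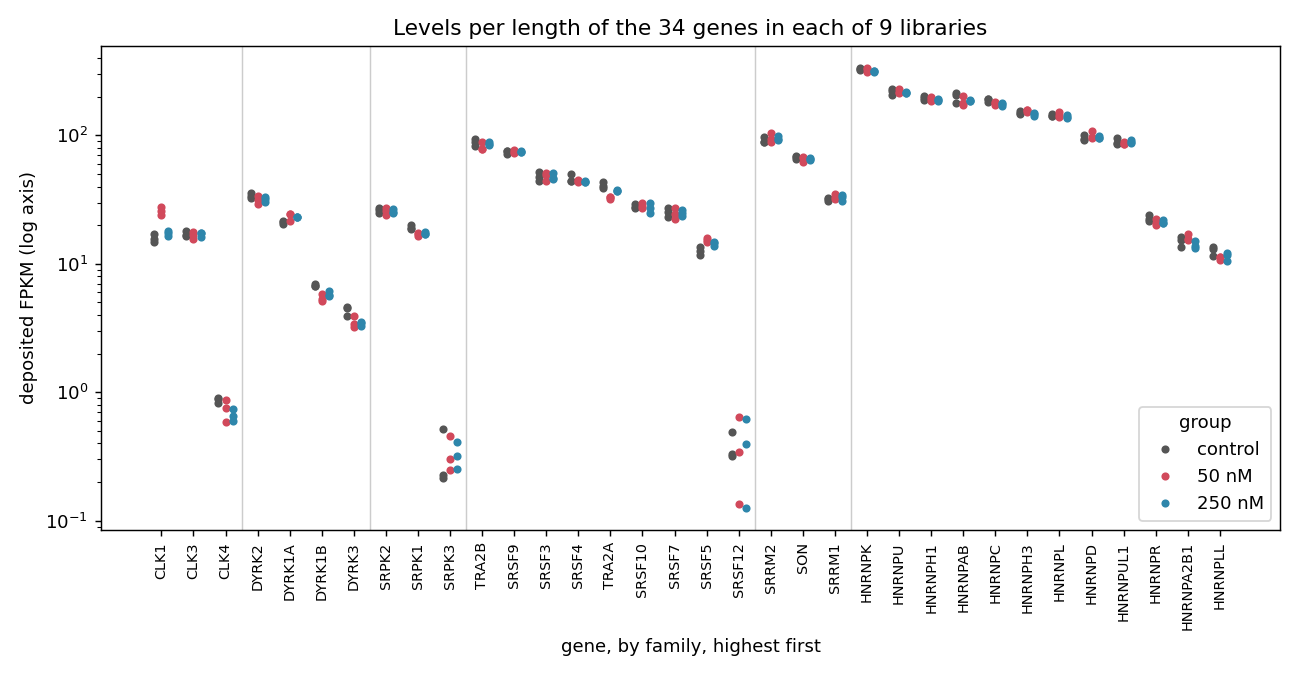
Deposited FPKM of each of the 34 genes (vertical log axis) in the 9 libraries, 1 point per library, coloured by group and ordered by family. HNRNPK is highest (mean 324 FPKM) and SRPK3 lowest (mean 0.327 FPKM), and CLK1 is set apart by its 50 nM points.

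At 50 nM, 3 of the 34 genes (8.82%) passed the test, against 3.25% of all genes tested. CLK1 and SRSF5 rose and TRA2A fell, and CLK1 had the largest change. The other 31 genes did not pass. Among all genes, 1.55% rose and 1.70% fell, so the number of members called is small and its share is not read as a result about the families. At 250 nM none of the 34 passed, against 0.308% of all genes (0.203% higher and 0.105% lower). There 5 had an unadjusted p under 0.05, against 8.67% of all genes, and DESeq2 called SRSF5, among 139 genes in all. Between 250 nM and 50 nM, CLK1 was lower at 250 nM and no other member passed, against 0.325% of all genes (0.187% higher and 0.138% lower). A test of any difference over the 3 groups called CLK1 and SRSF5, against 1.86% of all genes.

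CLK1, the nuclear kinase that phosphorylates SR proteins, had 26.8, 29.7 and 25.4 CPM in the control libraries. At 50 nM it had 42.6, 46.7 and 49 CPM, and at 250 nM 28.8, 31.1 and 31.8 CPM. All 3 libraries at 50 nM lay above the other 6, while the control and 250 nM libraries overlapped. The rise from 27.3 ± 2.2 CPM (SD, n = 3) to 46.1 ± 3.25 CPM (SD, n = 3) was 1.69-fold, with a 95% interval of 1.51-fold to 1.9-fold. On the log2 scale this was 0.76 ± 0.08 (edgeR adjusted p = 5.24e-05). CLK1 ranked 17th by p-value among all 12324 genes and 25th by size among the 191 genes that rose. This was therefore among the clearer but not the largest changes at 50 nM.

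At 250 nM CLK1 stood at 30.6 ± 1.58 CPM (SD, n = 3). Against the control its change was 0.17 ± 0.08 on the log2 scale and did not pass (edgeR adjusted p = 0.581), with a 95% interval of -0.00193 to 0.33. Against 50 nM it was lower by 1.51-fold (-0.59 ± 0.08, edgeR adjusted p = 0.00145). Both tests with the 50 nM group share those 3 libraries. The level of CLK1 thus did not follow the order of the concentrations. Its rise at 50 nM passed without each library in turn, at 0.71 to 0.82 on the log2 scale. The difference between 250 nM and 50 nM also passed without each library, but not on log2(FPKM + 0.1), where limma gave -0.58 with an adjusted p of 0.075.

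The other CLK genes listed did not follow CLK1. CLK3 had 49.8, 47.2 and 45.7 CPM in the controls, 44.7, 49.5 and 50.3 CPM at 50 nM, and 45.8, 50.2 and 50 CPM at 250 nM. These 3 groups overlapped throughout. CLK3 changed by 0.02 ± 0.07 at 50 nM (edgeR adjusted p = 0.951) and by 0.03 ± 0.07 at 250 nM (edgeR adjusted p = 0.959). Its 95% interval at 50 nM, -0.13 to 0.16, excludes a change of the size seen in CLK1. CLK4, the closest relative of CLK1, had 5.4, 5.6 and 5.04 CPM in the controls, 3.75, 5.68 and 4.75 CPM at 50 nM, and 3.79, 4.22 and 4.69 CPM at 250 nM. The libraries at 250 nM all lay below the controls, and those at 50 nM overlapped with both. Neither difference passed: -0.18 ± 0.15 at 50 nM (edgeR adjusted p = 0.664) and -0.34 ± 0.15 at 250 nM (edgeR adjusted p = 0.562).

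**Figure D2:**
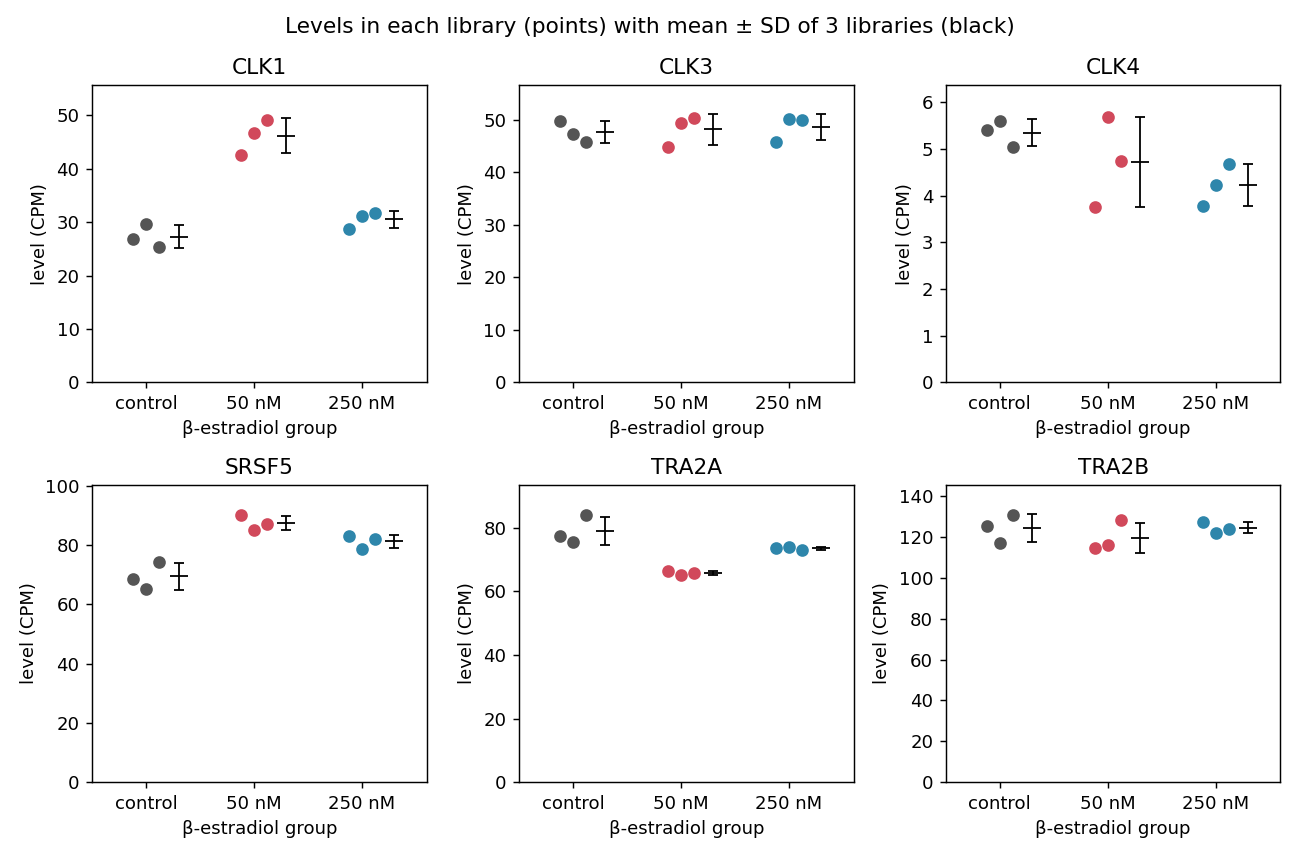
CPM (vertical axes, from 0) of CLK1, CLK3, CLK4, SRSF5, TRA2A and TRA2B in each library, 1 point per library, with mean ± SD of 3 libraries in black. The CLK1 points at 50 nM (42.6 to 49 CPM) stand above all other CLK1 points, while CLK3 stays between 44.7 and 50.3 CPM in every group.

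The difference between CLK1 and its relatives was tested on the ratio within each library. This test was chosen with earlier results of these data known, so its p-values describe the separation seen and are not independent support. The log2 ratio of CLK1 to CLK3 was -0.81 ± 0.12 in the controls (SD, n = 3), -0.06 ± 0.02 at 50 nM (SD, n = 3) and -0.67 ± 0.02 at 250 nM (SD, n = 3). In counts, which are not corrected for length, CLK1 thus came close to CLK3 at 50 nM only. Per length CLK1 had 15.9 FPKM in the controls, 25.9 FPKM at 50 nM and 17.3 FPKM at 250 nM. CLK3 had 17.1, 16.7 and 17.0 FPKM, so per length the genes lay closer in the controls and at 250 nM. The log2 ratio at 50 nM minus control was 0.74 on either scale. The ratio differed between the 3 groups (exact permutation test of F over 1680 arrangements, p = 0.00714, adjusted p = 0.00714 over 2 ratios). The log2 ratio of CLK1 to CLK4 was 2.35 ± 0.05 in the controls (SD, n = 3), 3.31 ± 0.24 at 50 nM (SD, n = 3) and 2.86 ± 0.09 at 250 nM (SD, n = 3). Here all 3 groups were apart, with 250 nM in between (exact permutation p = 0.00357, adjusted p = 0.00714). The value 0.00357 is the smallest p that 3 groups of 3 can give. At 250 nM this ratio combines a lower estimate for CLK4 (-0.34 ± 0.15) with a smaller rise in CLK1 (0.17 ± 0.08), neither of which passed. It is therefore no sign of an intermediate level of CLK1 alone, and CLK4 had just 207 to 362 counts per library. In pairs of groups, 3 libraries against 3 cannot go below an exact two-sided permutation p of 0.1. That value was reached by each pair for CLK4 and by both pairs with 50 nM for CLK3, where 250 nM against control gave an exact permutation p of 0.2. The 2 ratios share CLK1 and are not independent.

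**Figure D3:**
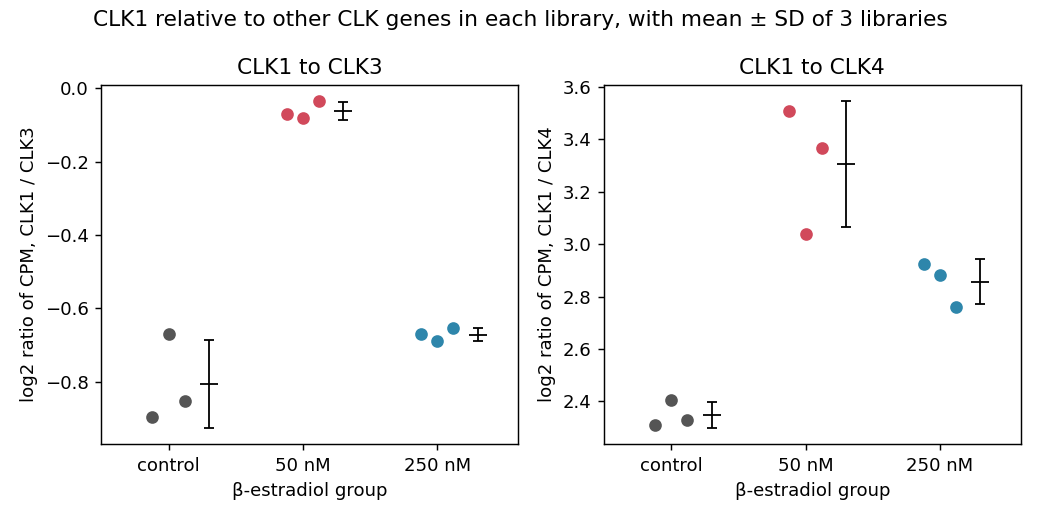
Log2 ratio of CLK1 to CLK3 (left) and to CLK4 (right) in each library, from CPM, with mean ± SD of 3 libraries in black; the vertical axes do not start at 0. Against CLK3 the 50 nM libraries stand apart (mean -0.06) from the other groups, and against CLK4 the 250 nM libraries (mean 2.86) lie between control and 50 nM.

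By gene order in RefSeq's table for mOryCun1.1, which served for names and neighbours alone, CLK1 lies between PPIL3 and BZW1 and overlaps no other gene. CLK3, used in the ratio above, overlaps LOC127487809 there, which was not analysed here. BZW1 changed by -0.04 ± 0.06 at 50 nM (edgeR adjusted p = 0.796), and PPIL3 was not analysed here. The tested neighbours of SRSF5 and TRA2A, which also overlap no other gene in that table, did not pass at 50 nM. These were SUSD6 beside SRSF5 (0.01 ± 0.08), and IGF2BP3 (-0.05 ± 0.10) and CCDC126 (-0.17 ± 0.13) beside TRA2A. For the counts themselves, build and strand setting were not given in the sources used here.

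SRSF5, an SR protein that promotes exon inclusion, had 68.6, 65.2 and 74.4 CPM in the controls. It had 90, 85.1 and 87.1 CPM at 50 nM and 82.9, 78.7 and 82 CPM at 250 nM. The 3 groups did not overlap, with 250 nM between the control and 50 nM. It rose 1.26-fold at 50 nM (0.33 ± 0.06, edgeR adjusted p = 0.00682), a smaller estimate than that of CLK1. On log2(FPKM + 1) the call was lost (0.26, limma adjusted p = 0.0579). At 250 nM the change of 0.23 ± 0.06 did not pass (edgeR adjusted p = 0.178), though DESeq2 called it (adjusted p = 0.0291). The difference between the concentrations, -0.11 ± 0.06, did not pass either (edgeR adjusted p = 1).

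TRA2A, an SR-like activator of exons, was the member that fell. It had 77.4, 75.5 and 84.1 CPM in the controls, 66.3, 65.1 and 65.7 CPM at 50 nM, and 73.5, 74.1 and 73 CPM at 250 nM. Again the groups did not overlap and 250 nM lay in between. The decrease at 50 nM was 1.2-fold (-0.27 ± 0.06, edgeR adjusted p = 0.0193). The call was lost without control replicate 3 (adjusted p = 0.112), 50 nM replicate 1 (0.0647) or 50 nM replicate 2 (0.063), each by edgeR. It was also lost when the control and 50 nM libraries were fitted alone (edgeR adjusted p = 0.0651). At 250 nM TRA2A changed by -0.10 ± 0.06 (edgeR adjusted p = 0.676). TRA2B, its relative, overlapped between groups, at 124 ± 6.87 CPM in the controls (SD, n = 3) and 120 ± 7.47 CPM at 50 nM (SD, n = 3), a change of -0.06 ± 0.06. Whether TRA2A and TRA2B differ in their change was not tested.

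The other 6 SR genes changed by between -0.01 and 0.07 at 50 nM, and none passed, against 3.25% of all genes. SRSF3, the smallest SR protein, had 225 ± 16.3 CPM in the controls (SD, n = 3) and 235 ± 16.1 CPM at 50 nM (SD, n = 3). SRSF12 had a 95% interval of -1.36 to 1.44, so a change of the size of CLK1's was not detectable at its depth.

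Of the DYRK genes, dual-specificity kinases related to the CLKs, 1 lay above 0 and 3 below at either concentration. None passed, against 3.25% of all genes at 50 nM and 0.308% at 250 nM. DYRK1B, a kinase linked to cell quiescence, had 18.5, 18.4 and 18 CPM in the controls, 14.4, 16.3 and 14.6 CPM at 50 nM, and 15.8, 17.1 and 15.7 CPM at 250 nM. All treated libraries lay below the controls. The change at 50 nM was -0.28 ± 0.08 (edgeR adjusted p = 0.0805); DESeq2 and limma on log2(FPKM + 1) called it. DYRK3, which takes part in the dissolution of RNA granules, had 13, 11.5 and 13.4 CPM in the controls and 10.5, 9.9 and 10.3 CPM at 250 nM, where its change was -0.30 ± 0.10 (edgeR adjusted p = 0.354). At 50 nM its libraries overlapped with the controls.

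DYRK1A, which phosphorylates splicing factors among many other proteins, was chosen here after its values were seen. It had 49.8, 48 and 49.5 CPM in the controls, 59.2, 60 and 51.3 CPM at 50 nM, and 55.1, 55.9 and 55.3 CPM at 250 nM. All treated libraries lay above the controls, and 50 nM replicate 3 was the lowest of them. Its changes of 0.21 ± 0.07 at 50 nM (edgeR adjusted p = 0.106) and 0.17 ± 0.07 at 250 nM (edgeR adjusted p = 0.425) did not pass. It was called at 50 nM by DESeq2 and by edgeR without 50 nM replicate 3. DYRK2, the most abundant DYRK gene per length, changed by -0.06 ± 0.07 at 50 nM.

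SRPK1, the main cytoplasmic SR protein kinase, had 108, 117 and 110 CPM in the controls, 104, 101 and 102 CPM at 50 nM, and 106, 103 and 102 CPM at 250 nM. All treated libraries lay below the controls, by little. The changes were -0.12 ± 0.05 at 50 nM (edgeR adjusted p = 0.284) and -0.11 ± 0.05 at 250 nM (edgeR adjusted p = 0.626). SRPK2 changed by 0.04 ± 0.07 and 0.01 ± 0.06. For SRPK3 the 95% interval at 50 nM ran from -0.88 to 1.11.

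SON and SRRM2, which form the scaffold of nuclear speckles, and SRRM1 did not pass in any comparison. SRRM2 had 895 ± 58.1 CPM in the controls (SD, n = 3), 959 ± 89.2 CPM at 50 nM (SD, n = 3) and 950 ± 41.1 CPM at 250 nM (SD, n = 3). SRRM1 had the largest estimates of the 3, 0.13 ± 0.06 at 50 nM (edgeR adjusted p = 0.329) and 0.09 ± 0.06 at 250 nM (edgeR adjusted p = 0.773).

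None of the 12 hnRNP genes passed in any comparison by edgeR, DESeq2 or limma. By edgeR 3.25% of all genes passed at 50 nM, 0.308% at 250 nM and 0.325% between the concentrations. With so few genes, no call in 12 is not read as a result about the family. At an unadjusted p under 0.05 HNRNPH3 alone was found at 50 nM, against 15.6% of all genes. Between the concentrations HNRNPA2B1 alone was found, against 5.68%. Their estimates at 50 nM ran from -0.14 (HNRNPLL, a regulator of splicing in lymphocytes) to 0.15 (HNRNPA2B1, which binds and sorts RNAs). HNRNPK had 653 ± 12.1 CPM in the controls (SD, n = 3), 667 ± 12 CPM at 50 nM (SD, n = 3) and 646 ± 2.42 CPM at 250 nM (SD, n = 3). HNRNPA2B1 had 22, 26.8 and 24.9 CPM in the controls, 25.9, 29.5 and 26.4 CPM at 50 nM, and 22.9, 22.5 and 25.2 CPM at 250 nM. Its 50 nM libraries all lay above those at 250 nM and overlapped with the controls, and the difference of -0.21 ± 0.09 between the concentrations did not pass (edgeR adjusted p = 0.713). HNRNPLL changed by -0.11 ± 0.08 at 250 nM (edgeR adjusted p = 0.777). Several hnRNP and SR genes have near-identical copies elsewhere in mammalian genomes, with which counts could be shared.

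Read over all 34 genes, the estimates were small. The median log2 fold change at 50 nM was 0.03 for the members, beside -0.00196 for all genes tested, and at 250 nM it was 0.00227 beside -0.00471. The median absolute change at 50 nM was 0.07 for the members and 0.10 for all genes, but the members were also measured more precisely. Their median SE was 0.0655 against 0.0939 for all genes, and their median coefficient of variation within groups 4.59% against 7.66%. For 31 of the 34 genes (91.2%) the 95% interval at 50 nM lay within 1.5-fold in either direction, against 76.6% of all genes. At 250 nM it was again 31 genes, against 78.5%, and between the concentrations 31, against 79.0%. At 50 nM the 3 exceptions were CLK1, whose interval lay above that bound, and the sparsely counted SRPK3 and SRSF12. These intervals are not adjusted for the number of genes.

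Estimates lay above 0 for 22 of the 34 members at 50 nM (64.7%, against 49.4% of all genes). They did so for 19 at 250 nM (55.9% against 48.2%) and for 10 at 250 nM against 50 nM (29.4% against 48.8%). An absolute log2 change of at least 0.2 was reached by 6 members at 50 nM (17.6%, against 26.4% of all genes). At 250 nM 3 reached it (8.82% against 20.4%), and between the concentrations 2 (5.88% against 18.3%).

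At an unadjusted p under 0.05, 8 of the 34 genes (23.5%) stood out at 50 nM, against 15.6% of all genes. Besides CLK1, SRSF5 and TRA2A these were DYRK1A, DYRK1B, DYRK3, SRPK1 and HNRNPH3. At 250 nM there were 5 (14.7%), against 8.67% of all genes: SRSF5, DYRK1A, DYRK1B, DYRK3 and CLK4. The comparisons of both concentrations with the control share the control libraries. Groups did not overlap for 11 members at 50 nM against control (32.4%, against 19.0% of all genes). The same held for 8 at 250 nM against control (23.5% against 15.5%) and for 8 between the concentrations (23.5% against 11.5%). Whether the members' shares differ from those of all genes was not tested. All 3 libraries at 50 nM lay above all controls for 8 members (23.5%, against 8.88% of all genes) and below them for 3 (8.82% against 10.1%). At 250 nM the counts were 3 above (8.82% against 7.75%) and 5 below (14.7% against 7.76%). At 250 nM against 50 nM they were 1 above (2.94% against 5.94%) and 7 below (20.6% against 5.57%). Those 7 were CLK1, SRSF5, HNRNPA2B1, HNRNPU, HNRNPH3, HNRNPK and HNRNPL; the 6 besides CLK1 did not pass, with estimates of -0.21 to -0.05.

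**Figure D4:**
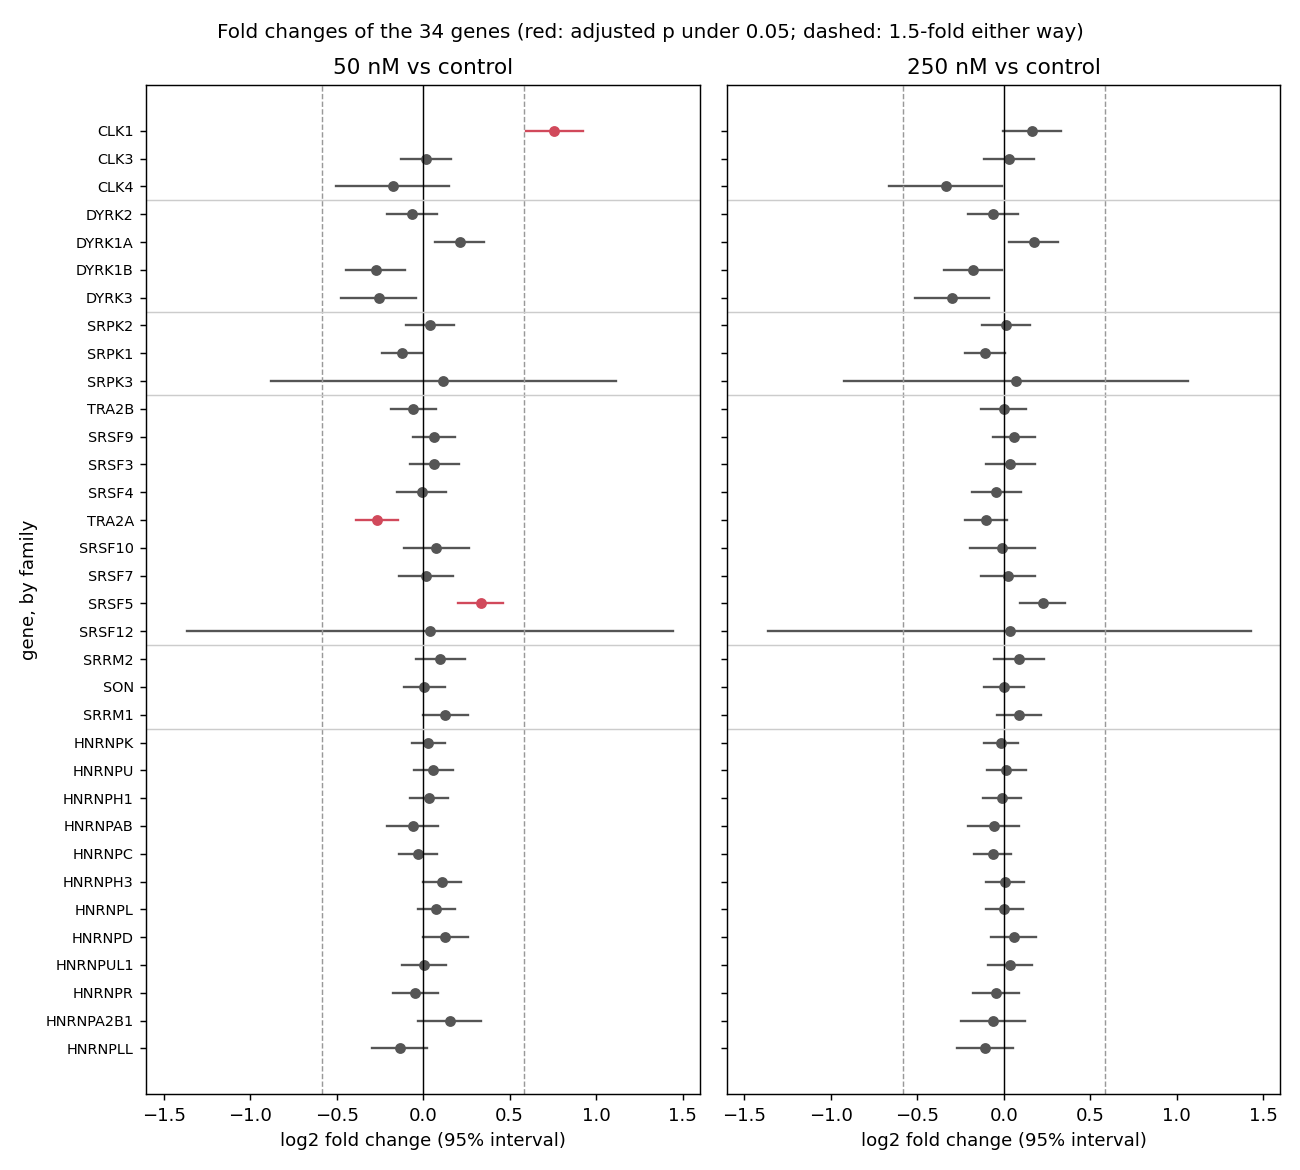
Log2 fold change (points) with 95% interval (lines) of the 34 genes at 50 nM (left) and 250 nM (right) against control, by family; red marks adjusted p under 0.05 and dashed lines a 1.5-fold change. CLK1 at 50 nM (0.76) is the sole gene whose whole interval lies beyond a dashed line, and no gene is red at 250 nM.

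Other genes of the splicing machinery passed at 50 nM in 2 of 5 lists, 1 gene in each, where 3.25% of all genes passed. Among 41 core spliceosome genes tested (of 53 listed), SF1, which recognises the branch point, rose at 50 nM from 226 ± 7.11 CPM (SD, n = 3) to 263 ± 3.97 CPM (SD, n = 3), a change of 0.22 ± 0.05 (edgeR adjusted p = 0.0304). In that list 8 genes had an unadjusted p under 0.05 at 50 nM, against 15.6% of all genes, and 3 at 250 nM, against 8.67%. The list's median was -0.01 at 50 nM and -0.03 at 250 nM, where none passed. Among 19 SR-related and speckle genes tested (of 27), CCNL1, a cyclin that partners splicing-linked kinases, rose at 50 nM from 111 ± 5.04 CPM (SD, n = 3) to 132 ± 7.59 CPM (SD, n = 3), a change of 0.26 ± 0.06 (edgeR adjusted p = 0.0223). At 50 nM 4 of these 19 genes had an unadjusted p under 0.05, against 15.6% of all genes. DESeq2 called CCNL1 and THRAP3 there, among 699 genes in all. The median of that list was 0.00114 at 50 nM and 0.01 at 250 nM, where edgeR called none. At 250 nM 1 of these genes had an unadjusted p under 0.05, against 8.67% of all genes. DESeq2 called CCNL1 at 250 nM, among 139 genes in all. Neither rise passed when the control and 50 nM libraries were fitted alone (edgeR adjusted p = 0.0861 for SF1 and 0.0767 for CCNL1) or on log2(FPKM + 1) (limma adjusted p = 0.112 for SF1 and 0.099 for CCNL1). Both also failed in edgeR without control replicate 1 (0.086 and 0.064), 50 nM replicate 1 (0.0831 and 0.104) or 50 nM replicate 2 (0.0983 and 0.0949). SF1 failed in addition without control replicate 3 (0.131) or 250 nM replicate 3 (0.0555), and CCNL1 without control replicate 2 (0.071).

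In the remaining lists edgeR called no gene against the control. Of 33 other splicing regulators tested (of 50), 6 had an unadjusted p under 0.05 at 50 nM, against 15.6% of all genes, and 0 at 250 nM, against 8.67%. The median was 0.02 and 0.00667. PTBP2, a repressor of neuronal exons, had the lowest p, with a change of 0.32 ± 0.09 at 50 nM (edgeR adjusted p = 0.0696); it passed in DESeq2, and limma on log2(FPKM + 1) called no gene of this list. Of 8 other kinases of the CMGC group, to which CLK, DYRK and SRPK kinases belong, 2 had an unadjusted p under 0.05 at 50 nM (15.6% of all genes) and 0 at 250 nM (8.67%). DESeq2 and limma on log2(FPKM + 1) called none of them, and the median was 0.04 and 0.00584. The transcription kinase gene CDK12 had the lowest p at 50 nM, with 0.17 ± 0.08 (edgeR adjusted p = 0.297). Of 13 genes of nonsense-mediated decay and the exon junction complex, 1 had an unadjusted p under 0.05 at 50 nM (15.6% of all genes), the endonuclease gene SMG6 (0.17 ± 0.08, edgeR adjusted p = 0.271), and 0 at 250 nM (8.67%). DESeq2 and limma on log2(FPKM + 1) called none of these either, and the median was 0.00493 and 0.000753.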

How the data were processed

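For 9 libraries, 3 per group, the files deposited by the authors give estimated counts per gene and, beside them, FPKM values. Per the submitters' processing notes, Trim Galore, TopHat2 2.1.1, Cufflinks and Cuffdiff were used. Which tool made each table, the build and the annotation were not given in the sources used here. Estimated counts as deposited are whole, and their low values pile up at multiples of 4. Columns were matched to samples by group and number.

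Genes were kept by filterByExpr (minimum count 10) and tested in R 4.3.3 with the quasi-likelihood method of edgeR 4.0.16, after TMM scaling, in 1 fit of all 9 libraries. Benjamini-Hochberg adjustment covered all 12324 genes. Alternatives were DESeq2 1.42.0, limma 3.58.1 on log2(FPKM + 1) and log2(FPKM + 0.1), RLE factors, other filters, only the compared groups, a replicate block, counts divided by 4, and leaving out each library. Libraries of a group differed by more than sampling noise.

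The 34 genes, the lists of other splicing genes and the tests were chosen with earlier results of these data known. Named members are CLK1, CLK3, CLK4, those past the threshold, and in each family the highest and lowest by FPKM and those of largest change at each concentration. Of other lists, those past the threshold or of lowest p are named. Others were chosen after their values were seen. A result for 1 gene of these lists is not reported here.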

Additional observations from a re-analysis of the deposited data

How the results depend on the processing

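The rise of CLK1 at 50 nM passed under all 10 alternatives (0.67 to 0.76) and without each library (0.71 to 0.82). Its difference between 250 nM and 50 nM was -0.65 to -0.55 without each library and lost the call on log2(FPKM + 0.1) (-0.58). This left 0 members called there, where 6 of all genes were called. Its change at 250 nM against control stayed short of the threshold in every setting (0.11 to 0.23 without each library). The ratio of CLK1 to CLK3 at 50 nM minus control was 0.70 to 0.81, and that to CLK4 0.86 to 1.09, without each library; both passed each time. Members called at 50 nM numbered 5 by DESeq2 (699 of all genes) and 2 with the other group left out of the fit (244 of all genes). The main fit called 3 (401 of all genes), and the fits without each library 2 to 4 (187 to 564 of all genes). At 250 nM DESeq2 called 1 (139 of all genes), and 0 were called without each library (5 to 56 of all genes). In the full edgeR fit 5 members had an unadjusted p under 0.05 there, against 8.67% of all genes. For any difference, limma on log2(FPKM + 1) and on log2(FPKM + 0.1) called 1 (179 and 76 of all genes). Without each library 1 to 3 were called (122 to 339 of all genes). It was 1 without control replicate 1, control replicate 2 or 50 nM replicate 1. Between 250 nM and 50 nM, 1 was called without each library (21 to 50 of all genes). The cause of these shifts was not tested.

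The median change of the members turned negative on FPKM: at 50 nM it was -0.0213 on log2(FPKM + 1), with or without the filter, and -0.0279 on log2(FPKM + 0.1). At 250 nM these were -0.0367 and -0.0383. The median of all genes there was -0.04 and -0.05 at 50 nM. Without each library the members' median in edgeR was 0.00558 to 0.0398 at 50 nM and -0.0273 to 0.00671 at 250 nM. Counts over all genes moved too: 244 to 699 at 50 nM, 4 to 139 at 250 nM, 6 to 98 between concentrations and 76 to 557 for any difference under the alternatives, and 187 to 564, 5 to 56, 21 to 50 and 122 to 339 without each library, against 401, 38, 40 and 229.

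With the replicate number as a block, 3 members were called at 50 nM, 0 at 250 nM, 1 between concentrations and 2 for any difference, so no member's call changed. Over all genes the block gave 492, 43, 42 and 272 calls, against 401, 38, 40 and 229 without it. Of 9 same-numbered pairs, 2 had a correlation of deviations over 0.1, the range being -0.12 to 0.23. Of 18 pairs with different numbers, 2 had one over 0.1, the range being -0.28 to 0.25. With 3 libraries a group, these values cannot decide whether the numbers pair the libraries.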
